A study of Homo sapiens with 6 samples.

Results

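The genes described here encode 10 transcription factors of the squamous lineage: TP63, SOX2, SOX4, SOX15, SOX21, KLF5, TFAP2A, TFAP2C, GRHL2 and ZNF750. They were found by gene symbol among the 58735 genes of the deposited table, each on 1 row. RNA sequencing had been done on KYSE30, an established human cell line from an oesophageal squamous cell carcinoma. A control siRNA named si-NC, or 1 of the 2 siRNAs named si-RAB23-1 and si-RAB23-9, which target the gene of the small GTPase RAB23, had been delivered with the lipid reagent HiPerFect at 100 nM. Each of the 3 groups held 2 libraries, which the series design calls biological replicates without saying whether they were separate cultures, so the p-values measure the spread between these libraries and may be partly technical. All groups share the 1 line, which is a model of tumour cells and not of normal oesophagus, and the control siRNA serves as reference for both RAB23 siRNAs.

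Stratified squamous epithelium, such as that of the oesophagus, renews itself from a basal layer whose identity is held by p63, the product of TP63. In the embryonic foregut SOX2 and p63 mark the future oesophagus, and both genes lie on the long arm of chromosome 3, which is often gained in squamous carcinomas. KLF5, the AP-2 factors TFAP2A and TFAP2C and the Grainyhead factor GRHL2 act with them on epithelial genes, and ZNF750 acts later, as cells leave the basal layer and differentiate. Several of these factors bind the same enhancers and regulate each other.

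Levels are given as FPKM, that is fragments divided by the length of the gene and by the size of the library, and rest on 17211025 to 24178125 recovered reads in each library. RAB23 itself stood at 3.27 and 3.33 FPKM in si-NC, 1.03 and 1.10 under si-RAB23-1, and 1.18 and 1.27 under si-RAB23-9. Its mean was 0.322 and 0.372 times that of si-NC. Both si-RAB23-9 libraries read higher for RAB23 than both si-RAB23-1 libraries. Limma made no call between these groups (log2 difference 0.11, SE 0.0815, limma adjusted p = 0.383). With 2 libraries each, that result does not show that the siRNAs lowered RAB23 equally. Of 12 squamous markers 9 reached 1 FPKM in at least 2 libraries, with summed levels of 323 to 341 FPKM in si-NC, 341 to 350 with si-RAB23-1 and 296 to 299 with si-RAB23-9, of which SFN, the stratifin gene, alone gave 262 to 311. The basal keratin KRT5 lay between 0.0394 and 0.272 FPKM in all 6 libraries, while its partner KRT14 lay between 2.13 and 3.46. Of the fibroblast, leukocyte and endothelial markers 1 each passed this filter (COL1A2, DCN, LUM and KDR were at 0), and none of 6 columnar markers did.

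Of the 9 squamous markers, 3 were higher with si-RAB23-1: the keratin gene KRT6A (1.04), the desmosome gene DSG3 (0.91) and the keratin gene KRT17 (0.44), as differences in log2(FPKM + 1) from si-NC (limma adjusted p = 0.00295, 0.00211 and 0.0150). With si-RAB23-9, KRT6A was higher (0.35) and SFN lower (-0.19), and 5 of the 9 were lower than with si-RAB23-1. Of all genes tested 8.13% were higher with si-RAB23-1, and 7.56% were higher and 5.69% lower with si-RAB23-9. Between the siRNAs 9.89% were lower with si-RAB23-9. KRT6A and DSG3 kept their calls with si-RAB23-1 with any 1 library left out. KRT17 lost its call without either si-NC library or si-RAB23-1 replicate 1 (limma adjusted p up to 0.0867), and both calls with si-RAB23-9 were lost on leaving out any library of si-NC or of si-RAB23-9 (up to 0.163). KRT6A and KRT17 have close copies in the genome with which reads can be shared, so their values are uncertain.

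The endothelial marker CDH5 read 3.65 and 3.60 FPKM in si-NC, 1.49 and 1.97 under si-RAB23-1, and 2.65 and 3.07 under si-RAB23-9, and was lower with si-RAB23-1 (-0.77, limma adjusted p = 0.0112). The leukocyte marker CSF1R read 4.91 and 4.75, 4.44 and 4.47, and 3.43 and 3.13 FPKM, and was lower with si-RAB23-9 (-0.45, limma adjusted p = 0.00957). Both calls were lost without either si-NC library, and that of CSF1R also without si-RAB23-9 replicate 2 (limma adjusted p up to 0.0707 and 0.0694). The fibroblast sum was 3.45 to 3.47 FPKM in si-NC, 3.44 to 3.53 with si-RAB23-1 and 3.69 to 3.92 with si-RAB23-9. The part of these markers in the results below was not tested.

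In si-NC, 9 of the 10 factors stood above 1 FPKM in both libraries. SOX15 at 40.3 to 46.9 FPKM and SOX2 at 35.8 to 40.6 FPKM were the highest, and their library ranges overlapped. GRHL2 followed with a mean of 22.8 FPKM, then TFAP2C with 21.9, KLF5 with 20.2, TP63 with 14.4, SOX4 with 10.9, TFAP2A with 5.81 and SOX21 with 3.38. ZNF750 was the lowest, at 0.643 and 0.579 FPKM. Below SOX2 no neighbours in this order had overlapping ranges, and with 2 libraries each the order carries no test.

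**Figure D1:**
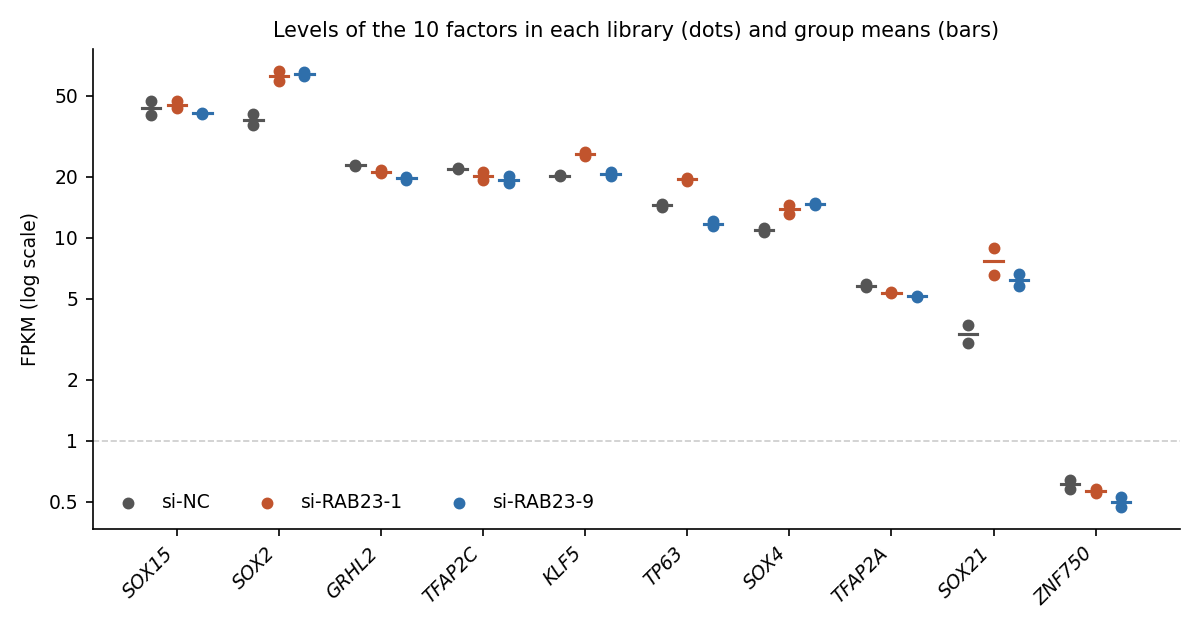
FPKM of the 10 factors in each library on a log axis, with dots for libraries and bars for the means of the control and the RAB23 siRNA groups. SOX2, SOX4 and SOX21 sit higher with either RAB23 siRNA than with si-NC, TP63 is highest with si-RAB23-1 and lowest with si-RAB23-9, and ZNF750 stays under 1 FPKM, the dashed line.

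With the RAB23 siRNAs the order changed. SOX2 became the highest of the 10, at 59.2 and 66.2 FPKM under si-RAB23-1 and at 65.4 and 62.5 under si-RAB23-9, with no overlap with SOX15 in either group. SOX21 stood above TFAP2A in both groups, where it had stood below it in si-NC. TP63 and SOX4 exchanged places with si-RAB23-9 only: TP63 averaged 11.7 FPKM and SOX4 14.7.

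Across the 14352 genes tested, 9 of the 10 factors passed the filter of 1 FPKM in at least 2 libraries, and ZNF750 did not. With si-RAB23-1, TP63, SOX2, SOX4, SOX21 and KLF5 were higher at a limma adjusted p under 0.05, 5 of the 9 tested. Of all genes tested 8.13% were higher by that rule, and 9.07% of the 871 tested genes with a transcription factor family in the table were. None of the 9 was lower by limma on log2 FPKM, against 7.26% of all genes; at an unadjusted p under 0.05 there was 1, GRHL2, and voom with library totals called 1. With si-RAB23-9, SOX2, SOX4 and SOX21 were higher, 3 of 9, against 7.56% of all genes. TP63 and GRHL2 were lower, 2 of 9, against 5.69% of all genes. The median log2 difference of the 9 was 0.32 with si-RAB23-1 and -0.08 with si-RAB23-9, beside medians of 0.0083 and 0.0060 over all genes tested.

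The comparisons with si-NC share the si-NC libraries, so a count over both is given as a description. SOX2, SOX4 and SOX21 were called higher in each, as were 2.93% of all genes tested. None of the 9 was called lower in each by limma, as were 1.52% of all genes. TP63 was called higher with si-RAB23-1 and lower with si-RAB23-9, as were 52 genes or 0.362% of those tested.

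**Figure D2:**
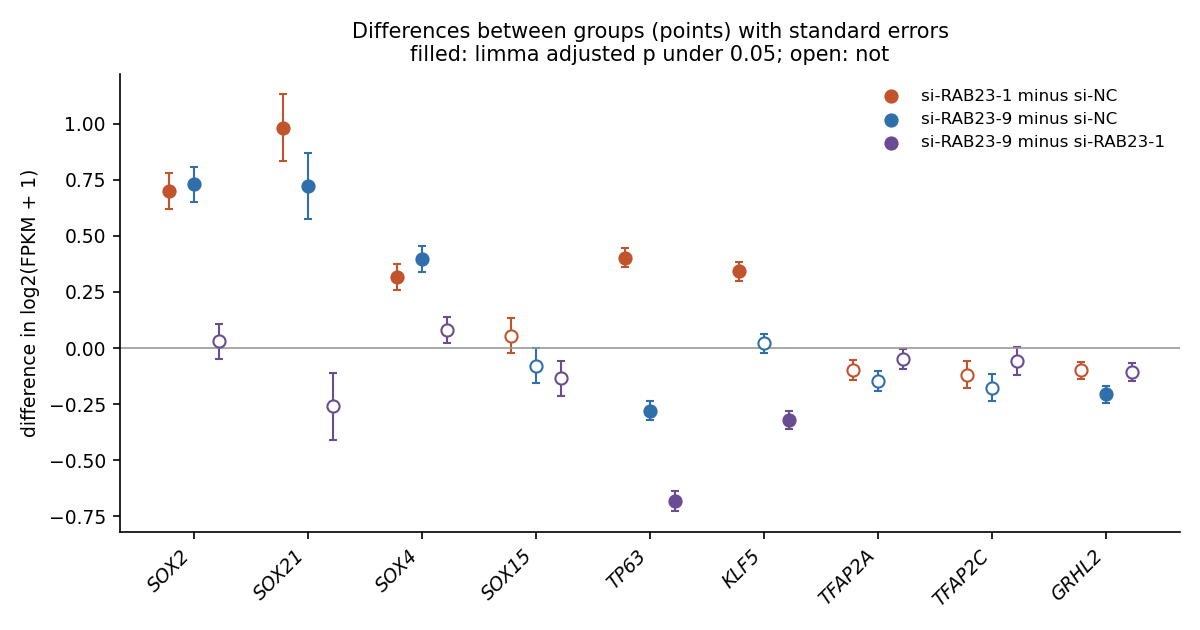
Differences in log2(FPKM + 1) between groups for the 9 tested factors, as points with standard errors, filled where the limma adjusted p is under 0.05. The 3 SOX genes at the left have filled points above 0 for both siRNAs, and TP63 has filled points on both sides of 0.

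TP63, the basal cell regulator, had the largest difference between the RAB23 siRNAs among the 9 tested factors. The gene (ENSG00000073282, GRCh38 chromosome 3, 189631416 to 189897279, plus strand) was read at 14.2 and 14.6 FPKM in si-NC, 19.7 and 19.1 under si-RAB23-1, and 12.0 and 11.4 under si-RAB23-9. All 3 groups were apart: both si-RAB23-1 libraries lay above and both si-RAB23-9 libraries below those of si-NC. The means were 14.4 ± 0.249, 19.4 ± 0.421 and 11.7 ± 0.450 FPKM (SD, n = 2 each), or 1.34 and 0.812 times si-NC. TP63 rose by 0.40 on the log2(FPKM + 1) scale with si-RAB23-1 (SE 0.0438, limma adjusted p = 0.00574) and fell by 0.28 with si-RAB23-9 (limma adjusted p = 0.0156).

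Set against each other directly, si-RAB23-9 was 0.68 lower than si-RAB23-1 in TP63 on the log2 scale (-0.68, 95% interval -0.79 to -0.57, limma adjusted p = 0.00142). That difference and the rise with si-RAB23-1 passed the test with any 1 library left out, the rise only narrowly in its weakest fit. The fall with si-RAB23-9 passed without either si-RAB23-1 library but was lost without si-NC replicate 1 (limma adjusted p = 0.0786), si-NC replicate 2 (0.0982), si-RAB23-9 replicate 1 (0.0613) or si-RAB23-9 replicate 2 (0.101). Its direction held in all 6 of these fits, between -0.32 and -0.24.

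TP63 makes long forms with a transactivation domain (TAp63) and shorter forms from an internal promoter (deltaNp63), the latter being the main forms of basal squamous cells. In GENCODE 29 on GRCh38, 5 annotated coding transcripts start between 189631427 and 189631516 and 6 between 189789660 and 189789801. The deposited values are summed over the gene, so the forms cannot be told apart here.

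Of 22 target genes known for p63 in basal cells 21 were tested, and KRT5 was not. With si-RAB23-1, 5 were higher and 1 was lower, against 8.13% and 7.26% of all genes tested, with a median of 0.11. COL17A1, the hemidesmosome collagen, was higher by 0.73, the Notch ligand gene JAG1 by 0.69, PERP, a desmosome gene, by 0.57 and CDH3, which encodes P-cadherin, by 0.27. BMP7, a BMP family ligand, was the 1 that fell, from 5.07 and 5.01 FPKM to 3.58 and 4.14.

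With si-RAB23-9, 3 of the 21 p63 targets were higher and 8 lower, against 7.56% and 5.69% of all genes, with a median of -0.09. COL17A1 (0.55), JAG1 (0.26) and PERP (0.24) were again higher than with si-NC. S100A2, a calcium-binding protein gene, read 18.2 and 18.1 FPKM with si-NC and 12.2 and 10.6 with si-RAB23-9 (-0.63, limma adjusted p = 0.0107). The integrin chains of basal cell attachment fell as well: ITGB4 by 0.43, ITGA3 by 0.35 and ITGA6 by 0.27.

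Directly compared, 13 of the 21 p63 targets were lower with si-RAB23-9 than with si-RAB23-1 and 1, BMP7, was higher, with a median of -0.24. Over all genes tested 9.89% were lower and 11.1% higher in this comparison, with a median of 0.00023. The count of 13 came to 5 without si-RAB23-9 replicate 1, 7 without si-RAB23-9 replicate 2, 9 without either si-RAB23-1 library and 12 without either si-NC library. The count of 8 lower with si-RAB23-9 came to 1 without si-NC replicate 1, 3 without si-NC replicate 2, 2 when si-RAB23-9 replicate 1 was omitted and 1 when its replicate 2 was. The count of 5 higher with si-RAB23-1 ranged from 3 (without si-NC replicate 2) to 6 (without si-RAB23-1 replicate 2).

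With any 1 library left out, COL17A1 passed the test with both siRNAs, JAG1 and PERP with si-RAB23-1 and ITGB4 with si-RAB23-9. ITGB4 passed only narrowly in its weakest fit. CDH3 lost its call without si-NC replicate 2 (limma adjusted p = 0.0540). The fall of BMP7 held only without si-RAB23-1 replicate 2 among these fits (limma adjusted p up to 0.159). S100A2 lost its call without either si-NC library or si-RAB23-9 replicate 2 (limma adjusted p up to 0.0696), and ITGA3 without si-NC replicate 1 or either si-RAB23-9 library (up to 0.0911). The calls of ITGA6 (up to 0.119) and, with si-RAB23-9, JAG1 (up to 0.168) and PERP (up to 0.0898) were lost on leaving out any library of si-NC or of si-RAB23-9.

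**Figure D3:**
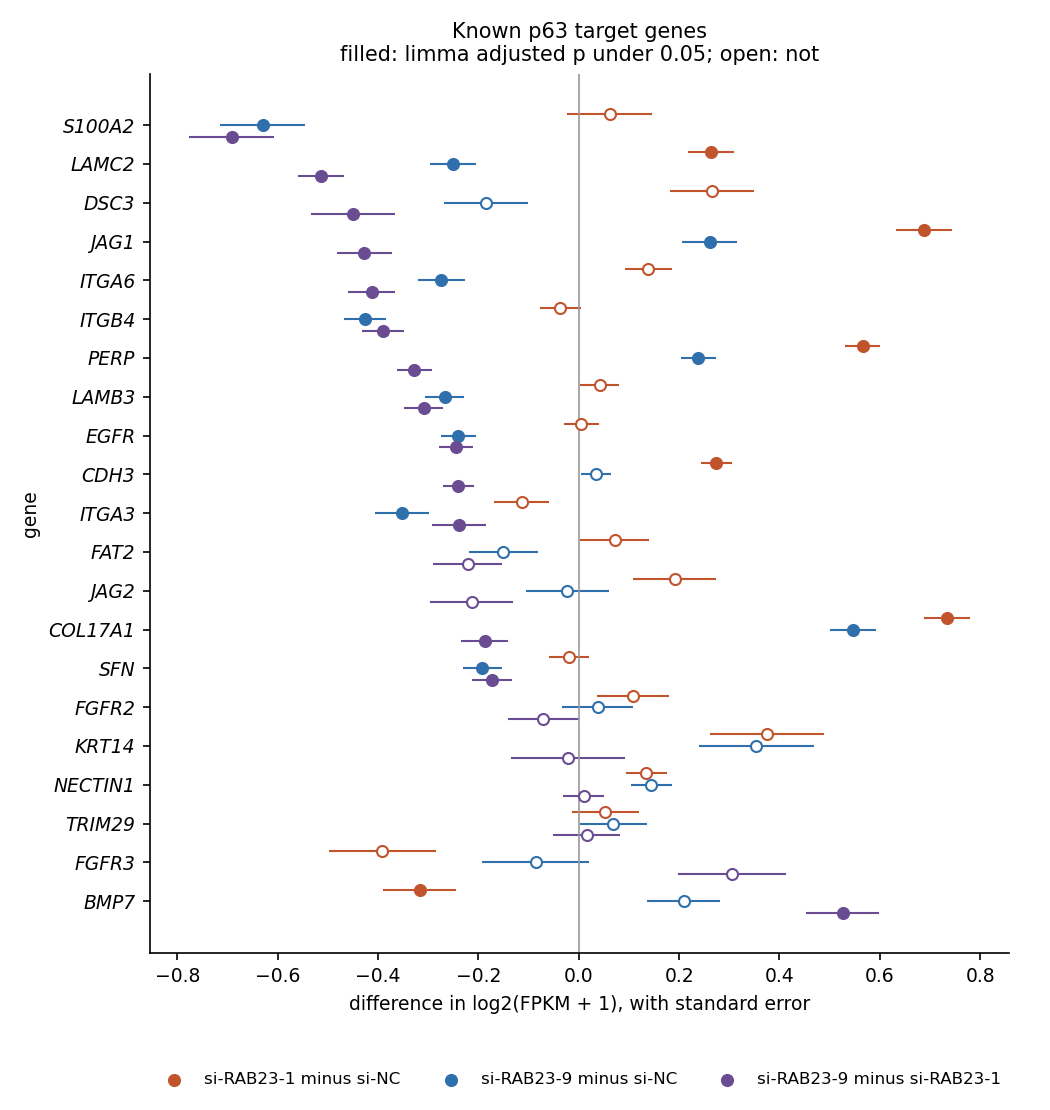
Differences in log2(FPKM + 1) with standard errors for the 21 tested p63 target genes in the 3 comparisons, filled where the limma adjusted p is under 0.05. In the direct comparison 13 genes have filled points left of 0 and BMP7 has one right of 0, while COL17A1, JAG1 and PERP lie right of 0 with each siRNA against si-NC.

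TP73, a relative of TP63 whose product p73 can pair with p63, passed the filter. It read 2.96 and 3.09 FPKM in si-NC, 2.59 and 2.55 under si-RAB23-1, and 3.804 and 4.025 under si-RAB23-9. Its groups did not overlap and stood in the opposite order to those of TP63. TP73 was higher with si-RAB23-9 than with si-NC (0.29, limma adjusted p = 0.0316) and than with si-RAB23-1 (0.46, limma adjusted p = 0.00695), and its difference of -0.17 with si-RAB23-1 did not pass (limma adjusted p = 0.110). The first call was lost on leaving out any library of si-NC or of si-RAB23-9 (limma adjusted p up to 0.170), and that between the siRNAs without si-RAB23-9 replicate 2 (0.0553).

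SOX2, which encodes the foregut and stem cell factor of that name, was higher with both RAB23 siRNAs by nearly the same amount. The gene (ENSG00000181449, chromosome 3, 181711924 to 181714436, plus strand) was read at 35.8 and 40.6 FPKM in si-NC, 59.2 and 66.2 under si-RAB23-1, and 65.4 and 62.5 under si-RAB23-9. Every library with a RAB23 siRNA lay above both si-NC libraries, and the ranges of the RAB23 siRNAs overlapped. The means of 38.2 ± 3.41, 62.7 ± 4.97 and 64.0 ± 2.09 FPKM (SD, n = 2 each) gave ratios of 1.64 and 1.67 to si-NC. SOX2 rose by 0.70 with si-RAB23-1 (SE 0.0786, limma adjusted p = 0.00616) and by 0.73 with si-RAB23-9 (limma adjusted p = 0.00618). Both calls held with any 1 library left out, that with si-RAB23-9 only narrowly in its weakest fit. The direct difference was 0.03 (95% interval -0.16 to 0.22, limma adjusted p = 0.815).

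SOX2 lies inside the long non-coding gene SOX2-OT on the same strand, which read between 0.00795 and 0.0370 FPKM. SOX2 and TP63 lie 7917 kb apart on chromosome 3, and the FPKM of SOX2 was 2.51 and 2.78 times that of TP63 with si-NC, 3.01 and 3.47 times with si-RAB23-1, and 5.44 and 5.48 times with si-RAB23-9. Of the 175 genes wholly between them 61 were tested. Of these, 5 were higher and 6 lower with si-RAB23-1 (median 0.05), against 8.13% and 7.26% of all genes tested. The counts with si-RAB23-9 were 5 higher and 4 lower (median 0.07), against 7.56% and 5.69% of all genes.

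SOX21, a SOX gene of the same subfamily as SOX2 that is known mainly as a repressor, had the largest ratios to si-NC of the 10. The gene (ENSG00000125285, chromosome 13, 94709622 to 94712399, minus strand) was read at 3.02 and 3.74 FPKM in si-NC, 6.54 and 8.86 under si-RAB23-1, and 5.81 and 6.61 under si-RAB23-9. Both RAB23 siRNAs lay wholly above si-NC and overlapped each other. The means of 3.38 ± 0.511, 7.70 ± 1.64 and 6.21 ± 0.567 FPKM (SD, n = 2 each) were 2.28 and 1.84 times si-NC. SOX21 rose by 0.98 with si-RAB23-1 (SE 0.149, limma adjusted p = 0.0135) and by 0.72 with si-RAB23-9 (limma adjusted p = 0.0326), and the direct difference was -0.26 (95% interval -0.63 to 0.11, limma adjusted p = 0.269).

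SOX21 rests on few reads for its length, between 200 and 547 per library. Its call with si-RAB23-1 was lost without si-NC replicate 1 (limma adjusted p = 0.0763) or si-NC replicate 2 (0.0535). With si-RAB23-9 it was lost without si-NC replicate 1 (0.143), si-NC replicate 2 (0.0851), si-RAB23-9 replicate 1 (0.0994) or si-RAB23-9 replicate 2 (0.154), and without the filter on low values both were lost (limma adjusted p = 0.0556 and 0.115).

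SOX4, a SOX factor of progenitor and tumour cells, moved in the same direction by a smaller amount. The gene (ENSG00000124766, chromosome 6, 21592768 to 21598619, plus strand) was read at 10.7 and 11.2 FPKM in si-NC, 13.1 and 14.6 under si-RAB23-1, and 14.5 and 14.8 under si-RAB23-9. Here too the RAB23 siRNAs overlapped each other and lay above si-NC. The means of 10.9 ± 0.359, 13.9 ± 1.007 and 14.7 ± 0.221 FPKM (SD, n = 2 each) were 1.27 and 1.34 times si-NC. SOX4 rose by 0.32 with si-RAB23-1 (limma adjusted p = 0.0222) and 0.40 with si-RAB23-9 (limma adjusted p = 0.0127), with a direct difference of 0.08 (95% interval -0.06 to 0.22, limma adjusted p = 0.366).

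With 1 library left out, the difference of SOX4 with si-RAB23-1 stayed between 0.25 and 0.38. Its call with si-RAB23-1 was lost without either si-NC library or either si-RAB23-9 library, and without the filter (limma adjusted p = 0.0660). The si-RAB23-9 libraries are not part of that difference and enter its test only through the shared spread and the adjustment over genes. With si-RAB23-9 it was lost without si-NC replicate 1 (0.0811), si-NC replicate 2 (0.0678), si-RAB23-9 replicate 1 (0.0703) or si-RAB23-9 replicate 2 (0.0868).

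SOX15 was the SOX gene of the set that no comparison called. The gene (ENSG00000129194, chromosome 17, 7588178 to 7590170, minus strand) was read at 46.9 and 40.3 FPKM in si-NC, 43.4 and 47.1 under si-RAB23-1, and 41.4 and 40.9 under si-RAB23-9. The si-NC libraries spanned the values of the si-RAB23-9 libraries and overlapped those of si-RAB23-1. The log2 differences were 0.06 (95% interval -0.14 to 0.25, limma adjusted p = 0.677) and -0.08 (95% interval -0.27 to 0.11, limma adjusted p = 0.563). Both intervals lie below the rise of SOX2. SOX15 overlaps MPDU1 on the opposite strand, which read 13.1 to 15.1 FPKM, and without knowledge of the strand the reads of the overlap could belong to either gene.

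The promoters of SOX2 and SOX21 are shown because these 2 factors had the largest rises with both siRNAs. The lines give the 250 bases upstream of the RefSeq start (GRCh38.p14), 5′ to 3′ on the gene's strand, from chr3:181711675-181711924 (plus) and chr13:94712546-94712795 (minus). Capitals mark matches, on either strand, to short forms of the binding motifs of the factors' own families: ACAAT for SOX, CACCC for KLF, GCCNNNGGC for AP-2 and AACNNGTT for Grainyhead.
SOX2: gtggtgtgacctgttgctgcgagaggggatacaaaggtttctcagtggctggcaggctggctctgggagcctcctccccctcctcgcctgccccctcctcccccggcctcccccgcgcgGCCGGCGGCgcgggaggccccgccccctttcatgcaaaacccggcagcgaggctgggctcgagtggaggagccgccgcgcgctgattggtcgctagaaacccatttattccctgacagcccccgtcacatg
SOX21: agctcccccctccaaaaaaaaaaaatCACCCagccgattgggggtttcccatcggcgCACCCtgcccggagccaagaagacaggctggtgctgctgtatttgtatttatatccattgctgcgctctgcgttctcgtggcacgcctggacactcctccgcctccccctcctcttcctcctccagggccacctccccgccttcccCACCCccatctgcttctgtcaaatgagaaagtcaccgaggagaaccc
The SOX2 window held 1 AP-2 match and the SOX21 window 3 CACCC matches, with no overlaps between motifs and no match to the other letters in either window. Over all 35116 RefSeq promoter windows of this length, 54.7% held the KLF letters, 24.6% the SOX letters, 19.8% the AP-2 letters and 2.999% the Grainyhead letters. Such a match describes letters and not a bound site, and CACCC is common in promoters.

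Of 15 SOX relatives beyond these 4 genes, 4 passed the filter, 6 were at 0 in all 6 libraries, and the highest value among the other 5 was 1.21 FPKM, for SOX18. SOX9, a factor of glandular and progenitor cells, rose by 0.25 with si-RAB23-1 and by 0.34 with si-RAB23-9, from 15.3 FPKM in both si-NC libraries to between 18.1 and 19.8. SOX12, a close relative of SOX4, rose by 0.47 with si-RAB23-9 (limma adjusted p = 0.0321), and its 0.35 with si-RAB23-1 did not pass (limma adjusted p = 0.0640). SOX7, best known from endothelium, went the other way, from 8.31 and 8.19 FPKM to 5.37 and 5.80 under si-RAB23-1 and to 5.55 and 5.43 under si-RAB23-9. The falls of SOX7 (-0.49 and -0.51) passed the test with any 1 library left out, that with si-RAB23-9 only narrowly in its weakest fit. SOX9 lost its call with si-RAB23-1 without either si-NC library (limma adjusted p up to 0.0823) and with si-RAB23-9 on leaving out any library of si-NC or of si-RAB23-9 (up to 0.0628), as SOX12 did (up to 0.152).

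By a fixed measure, the distance between the log2 values of the 6 libraries after centring on si-NC, the genes nearest to SOX2 among the 735 called in both comparisons were ZCCHC3 (distance 0.131), ZNF616 (0.188) and IFI16 (0.216). Nearest to SOX4 were KIAA1522 (0.0562), TBC1D9B (0.0740) and BCL3 (0.0853). Nearest to SOX21 were CEBPD (0.268), MGP (0.363) and HABP4 (0.407). These distances describe 6 libraries from 3 groups.

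KLF5, a zinc finger factor of proliferating basal cells, was higher with si-RAB23-1 and not with si-RAB23-9. The gene (ENSG00000102554, chromosome 13, 73054976 to 73077542, plus strand) was read at 20.3 and 20.2 FPKM in si-NC, 26.5 and 25.4 under si-RAB23-1, and 20.1 and 21.0 under si-RAB23-9. The si-RAB23-1 libraries stood above the other 4, and si-RAB23-9 spanned the si-NC values. The means of 20.2 ± 0.0676, 25.9 ± 0.738 and 20.6 ± 0.672 FPKM (SD, n = 2 each) were 1.28 and 1.02 times si-NC. KLF5 rose by 0.34 with si-RAB23-1 (SE 0.0412, limma adjusted p = 0.00764), while its difference with si-RAB23-9 was 0.02 (95% interval -0.08 to 0.12, limma adjusted p = 0.784).

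The direct difference of KLF5 between the siRNAs was -0.32 (95% interval -0.42 to -0.22, limma adjusted p = 0.00711). With TP63 it made 2 of 9 factors lower with si-RAB23-9 than with si-RAB23-1, against 9.89% of all genes tested. None of the 9 was higher by limma, against 11.1% of all genes, also at an unadjusted p under 0.05 and by voom. The KLF5 call with si-RAB23-1 was lost without si-NC replicate 1 (limma adjusted p = 0.0560) or si-NC replicate 2 (0.0591), and that of the direct difference without si-RAB23-9 replicate 1 (0.0502).

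Of 16 other KLF genes 8 were tested. KLF6, an early response factor, moved like KLF5 and further: 13.3 and 12.7 FPKM in si-NC, 27.6 and 25.0 under si-RAB23-1, and 16.1 and 14.8 under si-RAB23-9. Its rise of 0.97 with si-RAB23-1 (limma adjusted p = 0.00224) and its direct difference of -0.73 (limma adjusted p = 0.00287) passed with any 1 library left out, and 0.24 with si-RAB23-9 did not pass (0.0706). KLF4, a factor of suprabasal differentiation that often opposes KLF5, rose by 0.24 with si-RAB23-9, KLF13 by 0.27 and KLF16 by 0.20, and none of these 3 passed with si-RAB23-1. KLF4 lost its call on leaving out any library of si-NC or of si-RAB23-9 (limma adjusted p up to 0.134), as did KLF16 (up to 0.202), and KLF13 without any 1 library (up to 0.211).

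**Figure D4:**
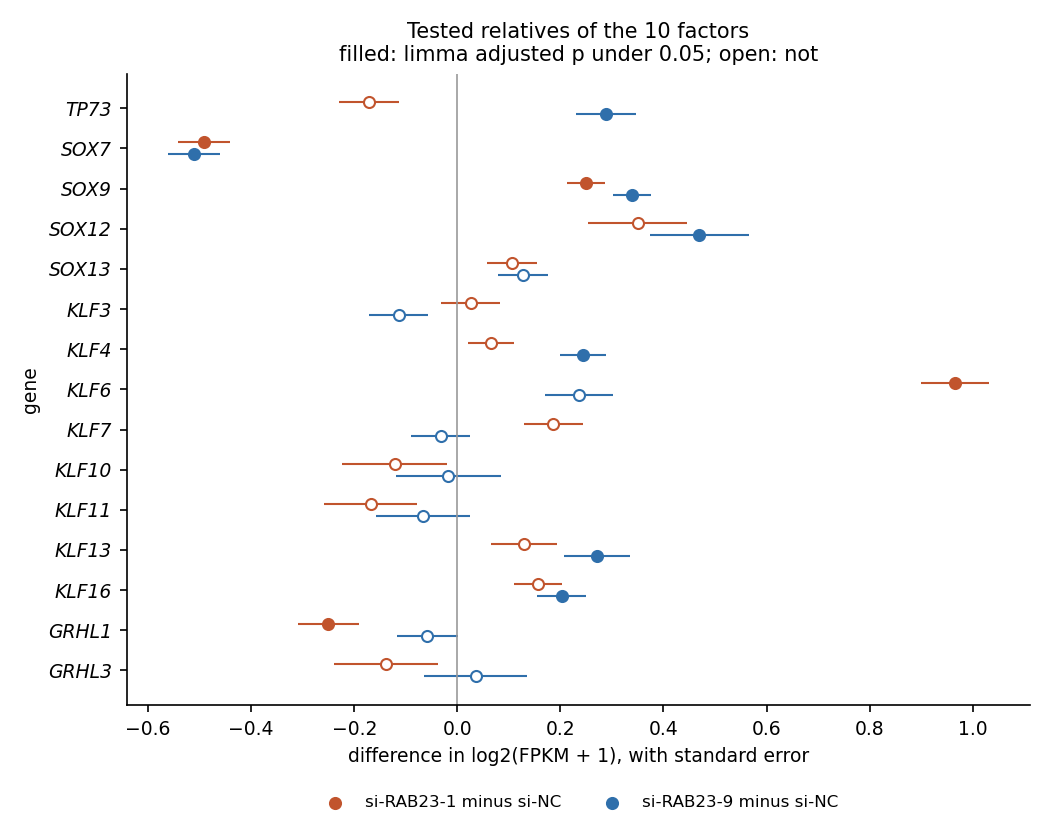
Differences from si-NC in log2(FPKM + 1) with standard errors for 15 tested relatives of the factors in the p63, SOX, KLF and Grainyhead families. Points are filled where the limma adjusted p is under 0.05, and no AP-2 relative passed the filter. KLF6 has the largest difference, 0.97 with si-RAB23-1, SOX7 lies left of 0 with both siRNAs, and TP73 lies on either side of 0.

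The AP-2 factors, which bind epidermal gene promoters, were slightly lower in all 4 RAB23 siRNA libraries, and limma called neither. TFAP2A (ENSG00000137203, chromosome 6, 10393186 to 10419659, minus strand) was read at 5.73 and 5.90 FPKM in si-NC, 5.32 and 5.42 under si-RAB23-1, and 5.12 and 5.18 under si-RAB23-9. TFAP2C (ENSG00000087510, chromosome 20, 56629302 to 56639283, plus strand) was read at 22.1 and 21.8 FPKM, 19.2 and 21.1, and 18.5 and 20.1. For both genes the si-NC libraries lay above all others, and for TFAP2C the RAB23 siRNAs overlapped.

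The log2 differences of TFAP2A were -0.10 (limma adjusted p = 0.201) and -0.15 (limma adjusted p = 0.0877), and those of TFAP2C were -0.12 (0.249) and -0.18 (0.121). Their 95% intervals reached -0.26 for TFAP2A and -0.33 for TFAP2C with si-RAB23-9. On recovered whole reads, voom called both lower with si-RAB23-9, TFAP2A at an adjusted p of 0.0381 or 0.0460 and TFAP2C at 0.0214 or 0.0294 by the library size used. The AP-2 relatives TFAP2B, TFAP2D and TFAP2E did not pass the filter.

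GRHL2, which keeps epithelial junction genes active, was lower with si-RAB23-9. The gene (ENSG00000083307, chromosome 8, 101492432 to 101669726, plus strand) was read at 22.7 and 22.9 FPKM in si-NC, 20.8 and 21.5 under si-RAB23-1, and 19.2 and 19.99 under si-RAB23-9. The 3 groups did not overlap, and si-RAB23-1 lay in the middle. The means of 22.8 ± 0.184, 21.2 ± 0.490 and 19.6 ± 0.537 FPKM (SD, n = 2 each) were 0.930 and 0.861 times si-NC. GRHL2 fell by 0.21 with si-RAB23-9 (SE 0.0390, limma adjusted p = 0.0258). Its difference of -0.10 with si-RAB23-1 did not pass (limma adjusted p = 0.148), nor did the direct difference of -0.11 (95% interval -0.20 to -0.01, limma adjusted p = 0.111).

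The GRHL2 call was lost without si-NC replicate 1 (limma adjusted p = 0.117), si-NC replicate 2 (0.139), si-RAB23-9 replicate 1 (0.144) or si-RAB23-9 replicate 2 (0.0997), and without the filter (0.0517). Voom with library totals called GRHL2 lower with si-RAB23-1 as well (adjusted p = 0.0432).

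All 11 listed target genes of GRHL2 were tested. By limma 1 was higher with si-RAB23-1, the tight junction gene CLDN7 (0.20), and 2 were higher with si-RAB23-9, the adhesion genes EPCAM (0.18) and CDH1 (0.13), which encodes E-cadherin. None was lower in either comparison by limma on deposited values with all libraries, with 1 and 2 lower at an unadjusted p under 0.05, while voom called 1 higher and 2 to 4 lower with si-RAB23-1, and 5 to 6 higher and 2 lower with si-RAB23-9. Limma called 1 lower with si-RAB23-9 on genes of at least 5 FPKM on average or after quantile normalization, and 1 with si-RAB23-1 without si-RAB23-1 replicate 2. The medians were 0.02 and 0.13. In the direct comparison 5 of the 11 were higher with si-RAB23-9 than with si-RAB23-1 and 1 was lower (median 0.00027). The shares of all genes tested were 11.1% and 9.89%. That higher count did not hold when either si-RAB23-9 library was left out. The CLDN7 call was lost without any 1 library (limma adjusted p up to 0.146), and those of EPCAM (up to 0.143) and CDH1 (up to 0.224) on leaving out any library of si-NC or of si-RAB23-9. The relative GRHL1 was lower with si-RAB23-1 (-0.25, limma adjusted p = 0.0436), a call also lost without any 1 library (up to 0.175).

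ZNF750, the factor that opens terminal differentiation, was barely detected. The gene (ENSG00000141579, chromosome 17, 82829435 to 82840578, minus strand) was read at 0.643 and 0.579 FPKM in si-NC, 0.553 and 0.581 under si-RAB23-1, and 0.470 and 0.531 under si-RAB23-9, or 33 to 57 reads per library. The si-RAB23-9 libraries were the lowest, and si-NC and si-RAB23-1 overlapped. Without the filter its log2 differences were -0.04 (limma adjusted p = 0.904) and -0.10 (limma adjusted p = 0.686), and neither passed the test. The gene lies inside TBCD, which is on the opposite strand and read 7.96 to 10.3 FPKM, and how many of its reads came from there cannot be told apart.

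Of 20 genes of late squamous differentiation, which lie downstream of KLF and ZNF750 factors, 10 were tested. With si-RAB23-1, 3 were higher and 1 lower (median 0.23), against 8.13% and 7.26% of all genes tested. The cornified envelope genes SPRR1B (1.10) and IVL (0.31), which encodes involucrin, and the suprabasal keratin KRT13 (0.84) rose. SPRR1B rests on few reads, 32 to 103 per library, as does SPRR3, named below, on 53 to 96. The envelope plakin gene PPL fell by 0.26. KRT13 and IVL narrowly missed the threshold with si-RAB23-9 (0.61 and 0.20, limma adjusted p = 0.0530 and 0.0536). Neither passed the direct test between the siRNAs (0.325 and 0.145). There 2 of the 10 were higher with si-RAB23-9 and 1, SPRR1B, lower, against 11.1% and 9.89% of all genes. Against si-NC, 2 were higher and 1 lower with si-RAB23-9 (median 0.31), against 7.56% and 5.69% of all genes: SPRR3 (0.52) and EVPL (0.24) rose and PPL fell by 0.23. Each of these 7 calls was lost without at least the si-NC replicate 2 library, and the highest limma adjusted p in such fits was 0.102 for SPRR1B, 0.0947 for KRT13, 0.0858 for IVL, 0.139 and 0.187 for PPL, 0.188 for SPRR3 and 0.145 for EVPL. With si-NC replicate 2 left out, the count higher was 0 with each siRNA.

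Of 26 other transcription factors of squamous epithelium 21 were tested. With si-RAB23-1, BNC1, a basal keratinocyte factor, rose by 0.36. EHF, an ETS factor of epithelia, fell by 0.56, CEBPA by 0.42, GRHL1 by 0.25 and CEBPB by 0.25. So 1 was higher and 4 lower (median -0.09), against 8.13% and 7.26% of all genes tested. With si-RAB23-9, where 7.56% of all genes tested were higher and 5.69% lower, 5 of the 21 were higher (median 0.04). Among these 5 were PITX1 by 0.46, BARX2 by 0.29, TP73 and KLF4. None of the 21 was lower with si-RAB23-9 by limma on log2(FPKM + 1), with 1 at an unadjusted p under 0.05. Voom called 1 lower, as did limma with a pseudocount of 0.1 or median-of-ratios scaling.

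EHF read 4.62 and 4.53 FPKM in si-NC, 2.93 and 2.65 under si-RAB23-1, and 5.01 and 4.28 under si-RAB23-9, and CEBPA 6.30 and 6.14, 4.24 and 4.55, and 6.82 and 7.35. In both the si-RAB23-1 libraries stood below the other 4, and the direct differences of 0.57 and 0.58 passed the test with any 1 library left out (limma adjusted p = 0.00891 and 0.00343 with all 6). Directly compared, 7 of the 21 were higher with si-RAB23-9 and 1, BNC1, was lower, against 11.1% and 9.89% of all genes tested. Without si-NC replicate 1 the calls against si-NC came to 0 higher and 0 lower with si-RAB23-1 and to 0 higher with si-RAB23-9. Without si-NC replicate 2 they came to 0 higher and 1 lower, and 0 higher. The count lower with si-RAB23-1 came to 2 without any 1 of the other 4 libraries, and the count higher to 0 without si-RAB23-1 replicate 1. Without either si-RAB23-9 library the count higher with si-RAB23-9 was 0.

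Some factors of other lineages also passed the filter. Of 7 mesenchymal transcription factors 4 were tested, and SNAI2, a repressor of E-cadherin that basal cells also express, rose by 0.36 with si-RAB23-1, and TWIST1 by 0.55 with si-RAB23-9. SNAI2 lost its call without si-NC replicate 2, si-RAB23-1 replicate 1 or either library of si-RAB23-9 (highest limma adjusted p 0.0923), and TWIST1 without either si-NC library or si-RAB23-9 replicate 2 (up to 0.112). Directly compared, 1 of the 4 mesenchymal factors was lower with si-RAB23-9 than with si-RAB23-1, SNAI2 (-0.57, limma adjusted p = 0.00590). Another 1, TWIST2, was higher (0.43, limma adjusted p = 0.0394). In that comparison 9.89% of all genes tested were lower and 11.1% higher. Of 11 columnar factors 4 were tested and none was called by limma. With si-RAB23-9, 1 columnar factor was higher and 1 lower at an unadjusted p under 0.05, and voom called the same numbers.

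**Figure D5:**
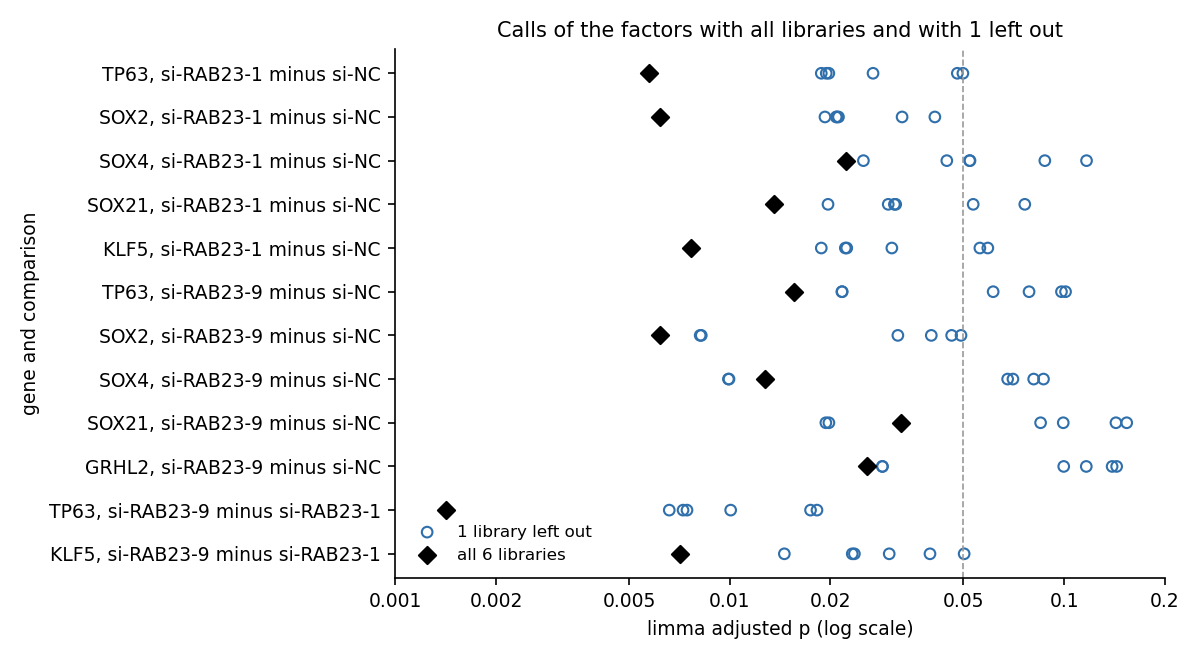
Limma adjusted p, on a log axis, of the 12 calls of the factors with all 6 libraries (diamonds) and with 1 library left out (circles); the dashed line is 0.05. All circles lie under 0.05 for SOX2 with both siRNAs and for TP63 with si-RAB23-1 and in the direct comparison, and the other 8 calls have at least 1 circle beyond it.

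The 3′ UTRs of the factors were searched for 3 sequences of 7 bases, which earlier results of these data had tied to genes that moved with 1 or both siRNAs. The sources used here do not give the siRNA sequences. The first of them, GACATAT, had no copy in the annotated 3′ UTR of any of the 10 (the longest per gene in GENCODE 29), and the same held for TCGGAGA. The remaining one, AAGTTAA, had 1 copy each in SOX21 and TFAP2C and none in the other 8. The sites are shown with 11 bases on either side, AAGTTAA in capitals, from chr13:94710171-94710199 (minus) and chr20:56638678-56638706 (plus), both GRCh38 and both in the 3′ UTR exon.
SOX21: agcgaatatcaAAGTTAActtttaaaaat
TFAP2C: tttaactttgaAAGTTAActcttcaaatg
Over the 10907 tested genes with a 3′ UTR, 16.7% held AAGTTAA, and 18.3% of these carriers, and 4.30% of the rest, were lower with si-RAB23-9. Because the sequence was taken from earlier results of these data, these shares are no separate test of it. SOX21, a carrier, was higher with si-RAB23-9. TFAP2C was not called by limma but was called lower by voom. TP63 and GRHL2, which were lower with si-RAB23-9, hold no copy in 2777 and 3023 bases of 3′ UTR. Whether the sequence had a part in the levels of these factors was not tested.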

How the data were processed

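The authors deposited 1 table of FPKM for genes, with a column for each library. Per the submitters' processing notes, which give no roles, the tools were STAR 2.5.1b, RSEM 1.2.29, Trimmomatic 0.36, edgeR 3.8.5 and FastQC, and the build hg19. Coordinates in the table equal those of GENCODE 29 on GRCh38 for all 58735 genes. Times gene length, 100% of the FPKM values were whole reads within 0.01 of a read. Strandedness is not given in the sources used here.

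Limma 3.58.1 in R 4.3.3 (eBayes with trend, 3 residual degrees of freedom) was fitted to log2(FPKM + 1) of all 6 libraries, for genes that reached 1 FPKM in 2 or more libraries. Tests were two-sided, with Benjamini-Hochberg adjustment over all 14352 genes and a threshold of 0.05. Log2 differences understate the change of low genes. The fit was also run on simulated reads with a preset spread, which does not show its error rate for these libraries. Members and lists were chosen with earlier results of these data known, and 2 listed genes are not reported here. Named genes were the 10 factors, RAB23, in each list up to 4 called genes per direction and comparison with si-NC, and the 3 nearest genes of each factor called with both siRNAs. KLF16 and the genes given beside counts of 5 or fewer in the direct comparison were named after their values were seen. Promoters came from RefSeq GRCh38.p14, which matched 6 of the 10 factors. Alternatives were other pseudocounts, filters and scalings, voom on whole reads, a replicate block, and leaving out each library.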

Additional observations from a re-analysis of the deposited data

Results flagged for a closer look

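For 2 of the factors the RAB23 siRNAs differed from each other by a direct test. TP63 was lower with si-RAB23-9 than with si-RAB23-1 by -0.68 on the log2(FPKM + 1) scale (limma adjusted p = 0.00142), with all libraries of the groups apart. KLF5 was lower by -0.32 (limma adjusted p = 0.00711), and this call was lost without si-RAB23-9 replicate 1 (0.0502). Groups of 2 libraries are too small for a check of single outlying libraries. Whether these differences follow from RAB23 or from other effects of either siRNA cannot be told apart in this design.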

How the results depend on the processing

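With 2 libraries per group and 3 residual degrees of freedom, most calls near the threshold depend on the spread shared by the groups. When 1 library of a pair is left out, the remaining one is assumed to vary like the other groups. Such a fit also has fewer residual degrees of freedom. A call lost in it can therefore reflect less power and not only the library left out. Among the factors, ZNF750 rests on the fewest reads (33 to 57 per library) and SOX21 on 200 to 547; the part of depth in their spread was not tested.

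Of the alternative values of the 9 tested factors, 335 kept direction and side of the threshold, 29 lost a call, 6 gained one and 8 changed sign. All 8 were uncalled. KLF5 with si-RAB23-9 came to -0.0197 by quantile normalization, and with 1 library left out it ranged from -0.0109 to 0.0527. In the same fits SOX15 ranged from -0.0522 to 0.163 with si-RAB23-1 and from -0.187 to 0.0284 with si-RAB23-9, and in the direct comparison SOX2 ranged from -0.0496 to 0.110 and TFAP2C from -0.126 to 0.00876. The cause was not tested.

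Without the filter si-RAB23-1 gave 543 genes higher, 506 lower and 3 factors higher, si-RAB23-9 gave 552 higher, 431 lower and 1 factor lower, and the direct comparison gave 771 higher and 687 lower. Voom with library totals called 1622 higher and 2178 lower with si-RAB23-1 with 1 factor lower, 1872 and 1536 with si-RAB23-9 with 4 factors lower, and 2695 and 1798 between the siRNAs. With sizes from median-of-ratios voom called 1879 and 1915, then 1802 and 1605 with 4 factors lower, then 2290 and 2116 with 3 factors lower.

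With 1 library left out, genes higher with si-RAB23-1 ranged from 216 to 985, lower from 201 to 901 and factors higher from 2 to 5. With si-RAB23-9 genes higher ranged from 147 to 1224, lower from 126 to 937, factors higher from 1 to 3 and factors lower from 0 to 2. Between the siRNAs genes higher ranged from 398 to 1417, lower from 363 to 1339 and factors lower from 1 to 2. The low ends over all genes came without si-NC replicate 2 for si-RAB23-1 and without si-RAB23-9 replicate 2 for the other comparisons. Those of the factors came without either si-NC library for si-RAB23-1, without any library of si-NC or si-RAB23-9 for si-RAB23-9, and without si-RAB23-9 replicate 1 between the siRNAs.

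Same-numbered libraries did not deviate together (correlations across 14352 genes of -0.06, -0.02 and 0.06), so no shift shared by number was seen. Whether such libraries were prepared together cannot be told from these values. With a replicate block the counts were 856 higher and 799 lower, 828 and 609, and 1299 and 1124, and the factors called were the same in number (5 and 0, 3 and 2, 0 and 2). The order of the 10 factors in si-NC was the same after median-of-ratios scaling.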
